A study of Homo sapiens with 6 samples.

Results

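The genes described here are 36 members of a fixed list that build the centromere and kinetochore or run the spindle checkpoint, out of 57820 genes in each count file. They were chosen by name and sorted by role into 17 inner centromere genes, 12 outer kinetochore genes and 7 checkpoint genes. All 36 symbols matched a single gene identifier, and all 36 passed the filter on low counts. Their transcripts were counted by sequencing total RNA of C4-2B-ENZR, a human line of prostate cancer cells, in a series whose title concerns resistance to enzalutamide, a prostate cancer drug. Cells were transfected with a negative-control siRNA (3 libraries) or with an siRNA against RUVBL1 (3 libraries), and no other agent, such as enzalutamide in the medium, is named for either group. RUVBL1 is an AAA+ ATPase of chromatin-remodelling and chaperone complexes. Both groups come from this 1 cell line, and the labels give neither the siRNA sequence or dose nor the time after transfection. The labels do not say that the replicates were separate cultures, so p-values here rest on a spread among libraries that may be technical only.

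The centromere is the chromosomal site where the kinetochore forms. It is marked by CENPA, a variant of histone H3, which its chaperone HJURP deposits with the help of the Mis18 complex. A set of further CENP proteins binds this chromatin all through the cell cycle. In mitosis it recruits the outer kinetochore, whose Ndc80 complex holds the ends of microtubules. Kinetochores without microtubules produce a checkpoint complex of MAD2, BUBR1 and BUB3 with CDC20, which holds back the anaphase-promoting complex until every chromosome is attached. Many of these genes are transcribed mainly in G2 and mitosis. Their promoters often carry CCAAT boxes and a short element called the CHR (cell-cycle genes homology region), through which the DREAM and MuvB complexes are known to act.

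The promoters of CENPA and CENPF are shown first, because these genes had the largest rise in the inner centromere and the outer kinetochore. Each sequence is the RefSeq window on GRCh38.p14 from 250 bases before to 30 bases after the annotated start, written 5′ to 3′ on the strand of the gene. Capitals mark matches on either strand to the CHR core TTTGAA, to CCAAT and to the E2F-like octamers TTTCGCGC, TTTGGCGC, TTTCCCGC and TTTGCCGC. CENPA lies at chr2:26785806-26786085 and CENPF at chr1:214602945-214603224, both on the plus strand.
CENPA: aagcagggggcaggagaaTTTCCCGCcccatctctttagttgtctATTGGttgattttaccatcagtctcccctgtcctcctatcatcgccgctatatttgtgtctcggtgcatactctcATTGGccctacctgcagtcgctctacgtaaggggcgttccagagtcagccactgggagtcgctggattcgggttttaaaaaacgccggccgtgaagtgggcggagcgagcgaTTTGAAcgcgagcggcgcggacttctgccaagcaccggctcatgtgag
CENPF: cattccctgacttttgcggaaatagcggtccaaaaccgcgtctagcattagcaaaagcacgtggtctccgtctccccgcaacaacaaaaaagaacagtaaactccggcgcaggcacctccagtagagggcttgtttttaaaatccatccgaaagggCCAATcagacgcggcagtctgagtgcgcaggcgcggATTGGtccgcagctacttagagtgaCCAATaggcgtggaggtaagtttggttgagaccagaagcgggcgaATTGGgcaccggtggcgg
The CENPA window held an E2F-like match, 2 CCAAT boxes and a CHR core 18 to 13 bases before the start. In CENPF, 4 CCAAT boxes lay near the start, and its CHR core, 41 to 46 bases after the start, falls beyond the printed stretch. The CENPA start lies 59 bases downstream of the first start in GENCODE 29, and the CENPF start coincides with it. The window of CENPI, the largest fall, held no match to any of the motifs and is not printed, because its start lies 621 bases downstream of the first start in GENCODE 29, although 10 bases from the nearest one.

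RUVBL1 itself was lower in every RUVBL1 siRNA library, at 57.1% ± 1.23 (SD, n = 3) of the control mean. Library totals ran from 18985542 to 36054489 estimated counts, and each member had between 154 and 7804 counts in every library. Values below are normalized counts, that is counts scaled to a common library size with TMM factors, and a gene is called when its edgeR adjusted p is under 0.05. KLK3, which encodes prostate-specific antigen and marks luminal prostate cells, stood at 11511 normalized counts in the control mean. The basal keratin gene KRT5, the stromal gene DCN and the T cell gene CD3E were at 0 in all 6 libraries. Basal KRT14 and TP63, stromal COL3A1 and endothelial CDH5 had at most 1 count in any library. Other markers of these kinds were counted. In the control mean, stromal COL1A1 was at 237 and PDGFRB at 83.3 normalized counts. Endothelial VWF was at 36.5, and immune PTPRC and CD14 were at 9.81 and 2.65. The 2 replicate 1 libraries stood apart: 542 genes with at least 20 counts in each of the other 4 libraries were at 0 in both. No member was among the 542. Where leaving out both replicate 1 libraries changed a member's call, the value is given beside it. Of the 10 luminal markers 7 fell, with a median log2 fold change of -0.25 over the 10, and their part in the members' changes was not tested.

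Of the 36 members, 16 rose and 6 fell after RUVBL1 siRNA, and 14 were not called. Across all 16006 genes tested, 42.2% were called, 19.1% as higher and 23.1% as lower. Among the members 44.4% rose and 16.7% fell. Their median log2 fold change was 0.07, and that of all genes tested was 0.01. The groups did not overlap for 26 members (72.2%), beside 52.6% of all genes tested. Within each of the 3 same-numbered pairs of libraries, 20 members (55.6%) were higher after RUVBL1 siRNA in every pair, beside 31.7% of all genes tested. Together the members took between 0.2177% and 0.218% of the TMM-scaled library size in the controls and between 0.2357% and 0.2406% after RUVBL1 siRNA. Of the raw totals, without TMM factors, they took between 0.2097% and 0.212% and between 0.2435% and 0.2502%. These sums weigh members by their counts and do not describe a rise of every member. CENPF, the member of highest count, went from a control mean of 5664 to 7785 normalized counts.

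**Figure D1:**
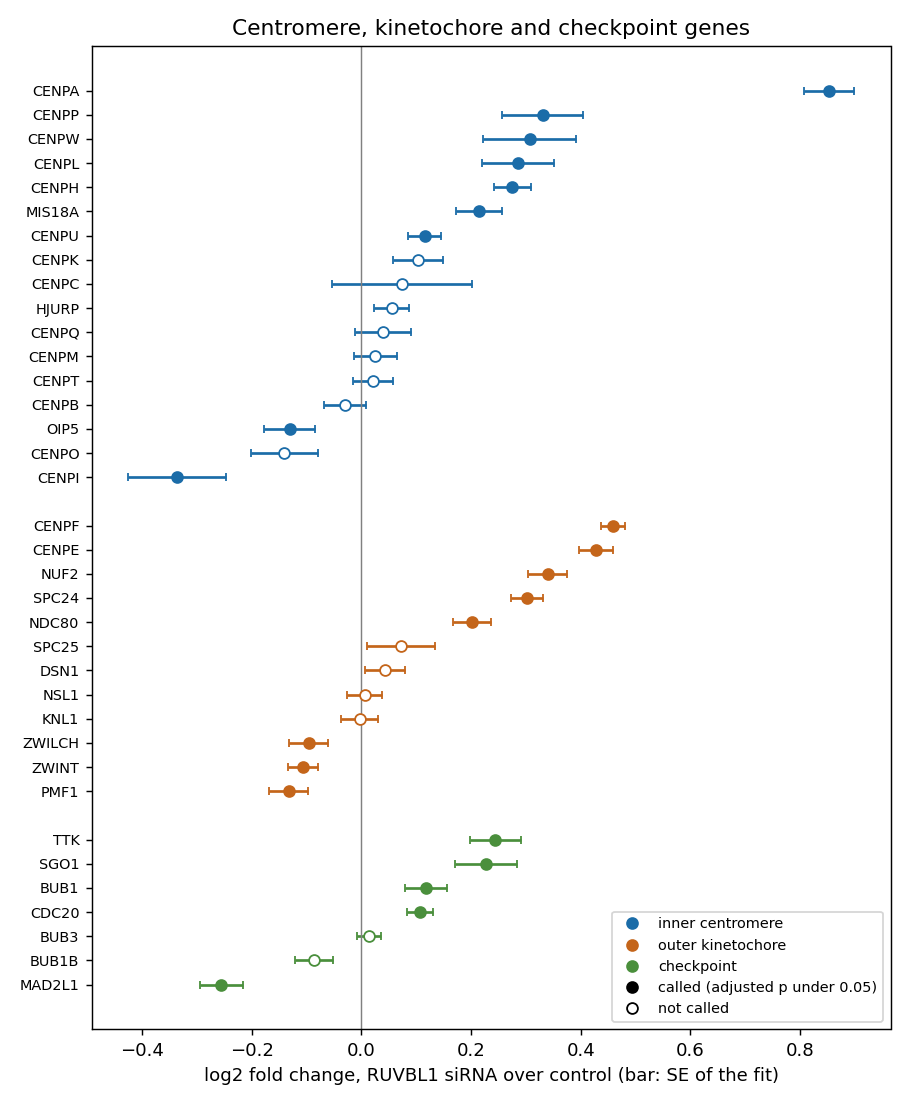
Log2 fold change of each member, RUVBL1 siRNA over control, with the SE of the edgeR fit as the bar, sorted within the inner centromere, outer kinetochore and checkpoint groups; filled points were called at an adjusted p under 0.05. CENPA stands alone at 0.85, CENPF and CENPE lead the outer kinetochore at 0.46 and 0.43, and CENPI (-0.34) and MAD2L1 (-0.25) are the lowest points.

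The direction of the smaller changes depended on how libraries were scaled. With libraries scaled by their totals alone, without TMM factors, the median of all genes moved up by 0.0992 on the log2 scale. Then 26 members were higher and 2 were lower, which is 92.9% of the called members as higher against 72.7% with TMM factors. For all called genes that share was 68.4% against 45.3%. The members' median lay 0.06 above that of all genes under both scalings. CENPI and MAD2L1 were the 2 members called lower under both. The call was kept with the same direction under all 16 alternatives by 15 of the 22 called members, of which 13 were higher and 2 lower. The other 7 were CENPU, CENPW, BUB1, OIP5, PMF1, ZWINT and ZWILCH.

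In the inner centromere group 7 of 17 genes rose (41.2%) and 2 fell (11.8%), beside 19.1% and 23.1% of all genes tested. The group's median log2 fold change was 0.07. The centromeric histone gene CENPA (ENSG00000115163.10) had 556, 563 and 576 normalized counts in the controls and 983, 1025 and 1051 after RUVBL1 siRNA. The lowest RUVBL1 siRNA library thus lay far above the highest control. The mean went from 565 ± 10.1 to 1019.6 ± 34.3 normalized counts (SD, n = 3 each). CENPA rose 1.81-fold (log2 fold change 0.85, SE 0.0462, edgeR adjusted p = 2.68e-08), more than any other member. As a level per kilobase of transcript, CENPA moved from rank 25 of the 36 members in the controls (411 normalized counts per kilobase) to rank 17 (741 normalized counts per kilobase).

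Of the 3 factors that load CENPA, 1 rose, 1 fell and 1 was not called. HJURP, the CENPA chaperone, had 1833, 1725 and 1805 normalized counts in the controls and 1855, 1860.1 and 1857 after RUVBL1 siRNA. Its groups did not overlap, but its log2 fold change was 0.06 (95% interval -0.01 to 0.12) and it was not called (edgeR adjusted p = 0.199). MIS18A, a Mis18 subunit, rose by a log2 of 0.21. OIP5 (ENSG00000104147.4), which encodes its partner Mis18-beta, had 1219.5, 1282 and 1201 normalized counts in the controls and 1144, 1187 and 1052 after RUVBL1 siRNA. OIP5 fell by 0.13 on the log2 scale, with an edgeR adjusted p of 0.0415 that was close to the threshold, and it missed the threshold in 8 of 16 alternatives. Among these, leaving out 1 library gave adjusted p values of 0.0688 (control 1), 0.153 (control 2), 0.0679 (siRNA 1) and 0.164 (siRNA 3). Scaling by library totals alone gave -0.03 (0.660). Reads of OIP5 may include those of the antisense gene OIP5-AS1, which overlaps it.

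The subunits of the constitutive centromere network moved unequally within their complexes. In the complex of CENPH, CENPI, CENPK and CENPM, CENPH rose by a log2 of 0.28, while CENPK (0.10) and CENPM (0.03) were not called. CENPI (ENSG00000102384.9) had 316, 320 and 348 normalized counts in the controls and 266, 234.5 and 279 after RUVBL1 siRNA. All 3 RUVBL1 siRNA values were below every control, and CENPI fell by 0.34 in log2 terms (SE 0.0890, edgeR adjusted p = 0.00885). It was the largest fall among the members.

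In the complex of CENPO, CENPP, CENPQ and CENPU, CENPP (ENSG00000188312.9) had 327, 336 and 303 normalized counts in the controls and 429, 400.4 and 387 after RUVBL1 siRNA. The groups were apart, and CENPP rose by a log2 of 0.33 (SE 0.0738, edgeR adjusted p = 0.00301). Its exons overlap those of IPPK and NOL8 on the other strand, so its count may hold reads of those genes. CENPU rose by 0.12 on the log2 scale, a call lost when control 2 was left out (adjusted p = 0.0548), and CENPQ, at 0.04, was not called. CENPO had a log2 fold change of -0.14 and was not called (edgeR adjusted p = 0.0851). It passed the threshold with the replicate number as a block (-0.15, edgeR adjusted p = 0.0193) and in replicates 2 and 3 alone (-0.19, edgeR adjusted p = 0.00876), as it did with siRNA 1 alone left out (-0.19, adjusted p = 0.0348).

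Among the members that touch DNA directly, CENPW (ENSG00000203760.4), a histone-fold partner of CENPT, had 403, 387 and 461 normalized counts in the controls and 461, 552 and 535 after RUVBL1 siRNA. The highest control and the lowest RUVBL1 siRNA library were nearly equal, so the groups overlapped slightly. CENPW rose by a log2 of 0.31 (SE 0.0850, edgeR adjusted p = 0.0123), but the call was lost on leaving out control 1 (adjusted p = 0.0616), control 2 (0.0760), siRNA 2 (0.0680) or siRNA 3 (0.0646). CENPT itself was at 0.02 on the log2 scale with a 95% interval of -0.05 to 0.09. CENPB, which binds a motif of centromeric satellite DNA, was at -0.03, and CENPL, of the CENP-L and CENP-N pair, rose by 0.29. CENPC, the protein that bridges CENPA chromatin to the outer kinetochore, had the lowest level of the 36, at 25.5 normalized counts per kilobase in the controls. Its log2 fold change of 0.07 had a 95% interval of -0.17 to 0.32, the widest among the members.

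**Figure D2:**
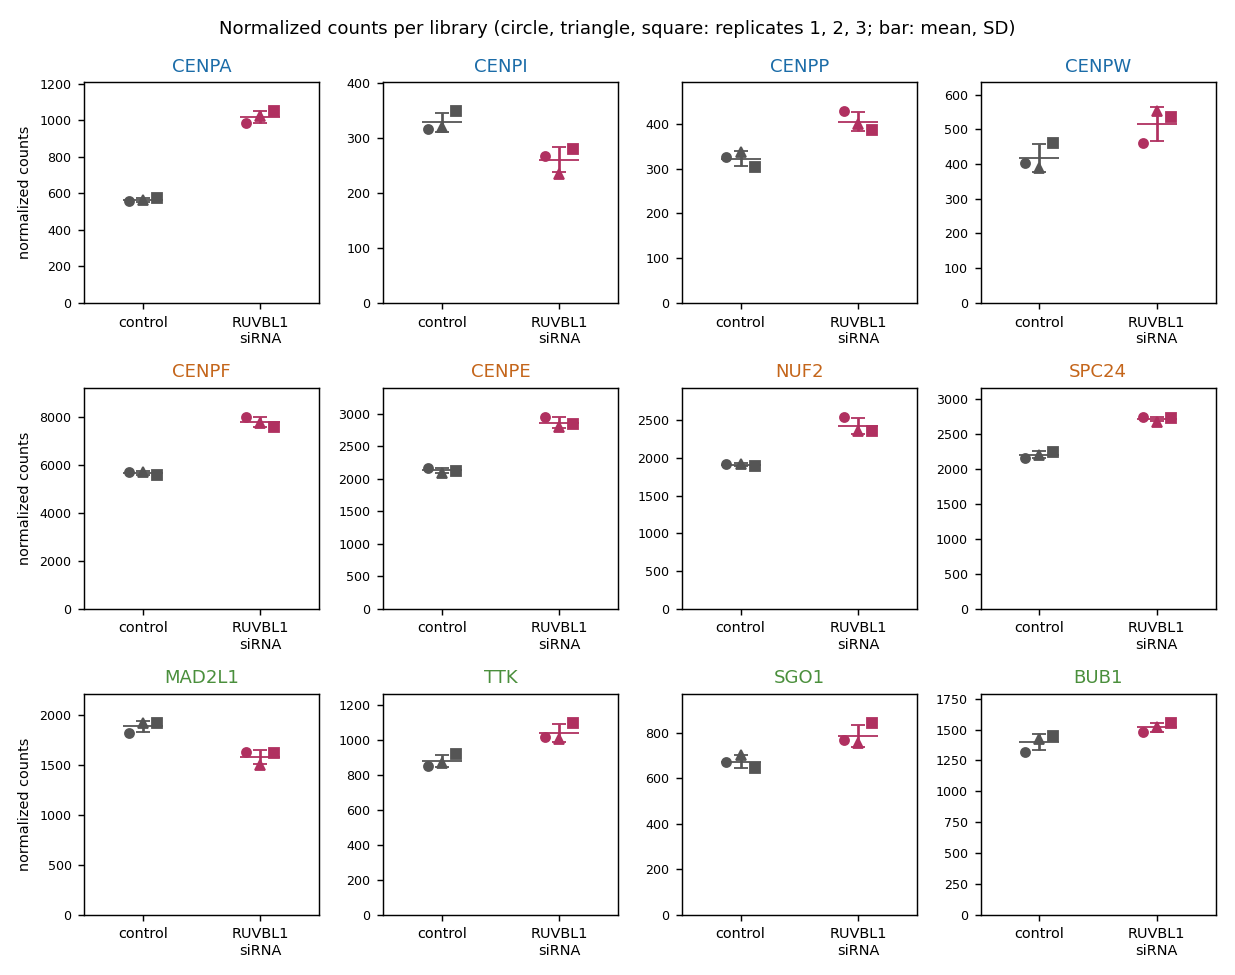
Normalized counts in each library (y axis, from 0) for the 4 called members of largest absolute log2 fold change in each group, control and RUVBL1 siRNA on the x axis; circles, triangles and squares are replicates 1, 2 and 3, and bars give the mean and SD. The groups are apart in 11 of the 12 panels, and in CENPW the highest control and the lowest RUVBL1 siRNA library are both at 461.

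In the outer kinetochore group 5 of 12 genes rose (41.7%) and 3 fell (25%), with a median log2 fold change of 0.06. Across all genes tested 19.1% rose and 23.1% fell, so the share of falls was near that of all genes. CENPF and CENPE, which sit in the fibrous corona, the outermost layer of the kinetochore, had the largest rises, while ZWILCH, also of the corona, was called lower. CENPF (ENSG00000117724.8), a large microtubule-binding protein, had 5719, 5691 and 5583 normalized counts in the controls and 8004, 7754 and 7598 after RUVBL1 siRNA. It rose 1.37-fold (log2 0.46, SE 0.0212, edgeR adjusted p = 7.20e-09), with no overlap of the groups. CENPE (ENSG00000138778.7), the kinesin that moves chromosomes to the spindle equator, had 2169, 2095.5 and 2119 normalized counts in the controls and 2948, 2789 and 2848 after RUVBL1 siRNA. It rose 1.34-fold (log2 0.43, SE 0.0311, edgeR adjusted p = 3.38e-07), again with every RUVBL1 siRNA library above every control.

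The Ndc80 complex, the main microtubule contact, had 3 of its 4 genes higher. NUF2 (ENSG00000143228.8) had 1921, 1919 and 1888 normalized counts in the controls and 2541, 2354 and 2357 after RUVBL1 siRNA. SPC24 (ENSG00000161888.7) had 2145, 2201 and 2242 in the controls and 2736, 2672 and 2719 after RUVBL1 siRNA. Neither gene's groups overlapped. NUF2 rose by a log2 of 0.34 (SE 0.0353, edgeR adjusted p = 7.60e-06), SPC24 by 0.30 (SE 0.0294, edgeR adjusted p = 4.26e-06) and NDC80, which encodes HEC1, by 0.20. SPC25, the partner of SPC24, was not called, at 0.07 on the log2 scale with a 95% interval of -0.05 to 0.20. In the controls SPC25 had 380.2 normalized counts per kilobase, the lowest of the 4 subunits, beside 949, 1035 and 1249 for SPC24, NUF2 and NDC80.

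For members of the Mis12 complex and for KNL1 and its partner ZWINT, which help join Ndc80 to the centromere, log2 fold changes lay between -0.13 and 0.04. In the Mis12 complex, DSN1 (log2 fold change 0.04) and NSL1 (0.01) were not called. PMF1 (ENSG00000160783.15) had 1630.3, 1644 and 1675 normalized counts in the controls and 1443.5, 1501 and 1568 after RUVBL1 siRNA, with no overlap. PMF1 fell by 0.13 in log2 terms (edgeR adjusted p = 0.00923), but with libraries scaled by their totals alone it was at -0.03 and not called (adjusted p = 0.488). The readthrough gene PMF1-BGLAP shares its exons, so its value is uncertain.

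KNL1, the scaffold for BUB1 and BUB3, was at -0.0031 on the log2 scale, with a 95% interval of -0.07 to 0.06. The SE behind it (0.03308) was below that of counting noise alone (0.03435), so this interval may be too narrow. With library totals alone KNL1 was at 0.10 (edgeR adjusted p = 0.0329). Its partner ZWINT (ENSG00000122952.12) had 3705.5, 3572 and 3609 normalized counts in the controls and 3339.6, 3309.8 and 3468 after RUVBL1 siRNA. ZWINT fell by 0.11 in log2 terms (edgeR adjusted p = 0.00784), and this was -0.01 and not called with library totals alone (adjusted p = 0.900). ZWILCH (ENSG00000174442.7), of the RZZ complex that brings dynein to the kinetochore, had 2387, 2429 and 2491 normalized counts in the controls and 2263, 2379.8 and 2194 after RUVBL1 siRNA. It fell by 0.10 on the log2 scale with an edgeR adjusted p of 0.0447, missed the threshold in 8 of 16 alternatives, and turned to 0.0035 with library totals alone. Leaving out 1 library lost the call for control 2 (adjusted p = 0.0992), control 3 (0.136), siRNA 1 (0.0872) and siRNA 3 (0.181).

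In the checkpoint group 4 of 7 genes rose (57.1%) and 1 fell (14.3%), beside 19.1% and 23.1% of all genes tested. The group's median log2 fold change was 0.11. The fall was that of MAD2L1 (ENSG00000164109.9), which encodes MAD2, the protein that binds CDC20 when kinetochores are unattached. MAD2L1 had 1825, 1923 and 1921 normalized counts in the controls and 1633, 1503 and 1619 after RUVBL1 siRNA. All 3 RUVBL1 siRNA values were below the lowest control, and MAD2L1 fell by 0.25 in log2 terms (SE 0.0387, edgeR adjusted p = 0.000180). With library totals alone it was still called lower (-0.16, edgeR adjusted p = 0.00601). CDC20, the protein that MAD2 holds back and the activator of the anaphase-promoting complex, rose by a log2 of 0.11 (SE 0.0242, edgeR adjusted p = 0.00341). CDC20 and BUB3 were among the 3 members of highest level in the controls, at 2023 and 2882 normalized counts per kilobase.

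The other 2 components of the mitotic checkpoint complex were not called. BUB3 was at 0.01 on the log2 scale, with a 95% interval of -0.03 to 0.06. BUB1B, which encodes BUBR1, was at -0.09 with groups that did not overlap (edgeR adjusted p = 0.0671). It passed the threshold with the replicate block (-0.09, edgeR adjusted p = 0.0258) and in replicates 2 and 3 alone (-0.11, edgeR adjusted p = 0.0118), as it did with siRNA 1 alone left out (-0.11, adjusted p = 0.0185), and it turned to 0.01, not called, with library totals alone.

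The kinase genes TTK and BUB1 and the cohesin protector gene SGO1 were called higher, although BUB1 kept its call in only 11 of 16 alternatives. TTK (ENSG00000112742.5), which encodes the kinase MPS1 that starts checkpoint signalling, had 847, 867 and 915 normalized counts in the controls and 1016, 1004 and 1095 after RUVBL1 siRNA. It rose by a log2 of 0.24 (SE 0.0469, edgeR adjusted p = 0.00107). SGO1 (ENSG00000129810.10), which encodes shugoshin, the protector of centromeric cohesin, had 672, 701 and 643 normalized counts in the controls and 765, 753 and 842 after RUVBL1 siRNA. SGO1 rose by a log2 of 0.23 (SE 0.0569, edgeR adjusted p = 0.00624), and its exons overlap the antisense gene SGO1-AS1. For TTK and SGO1 every RUVBL1 siRNA library was above every control.

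BUB1 (ENSG00000169679.10), the kinase that recruits further checkpoint proteins and shugoshin, had 1322.5, 1427 and 1444.5 normalized counts in the controls and 1478, 1521 and 1554 after RUVBL1 siRNA. The gap between the groups was narrow. BUB1 rose by a log2 of 0.12 (SE 0.0387, edgeR adjusted p = 0.0269), and the call was lost in 5 of 16 alternatives. Among these were leaving out control 1 (adjusted p = 0.124), control 2 (0.0559), siRNA 2 (0.0856) or siRNA 3 (0.118). The exact two-sided permutation test on log2 values gave p = 0.1, the smallest p that 20 assignments of 3 against 3 libraries allow, for each of the 12 members drawn by library except CENPW, which had p = 0.2.

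**Figure D3:**
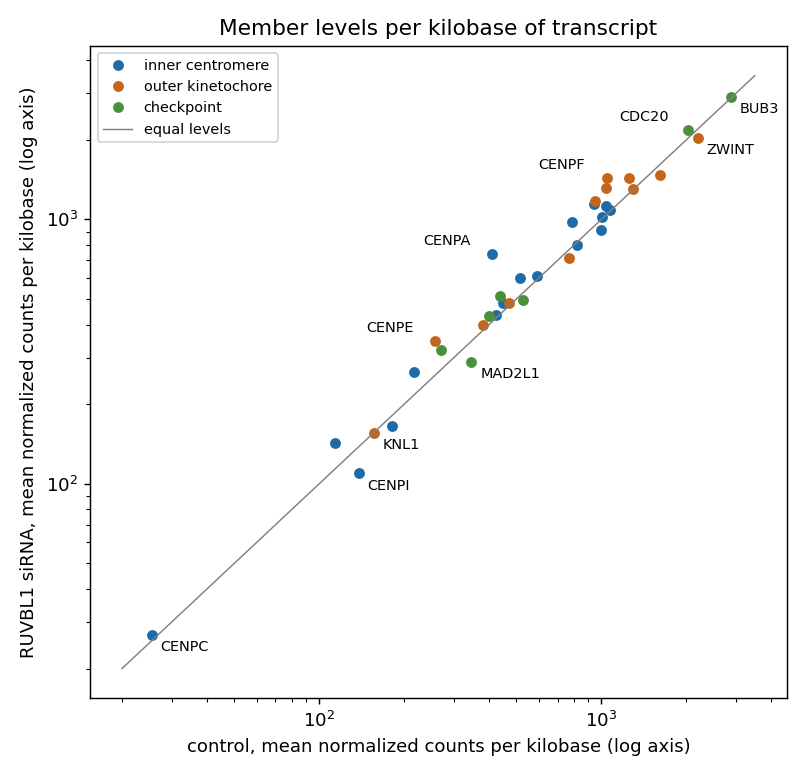
Mean normalized counts per kilobase of each member in the control (x) and RUVBL1 siRNA (y) libraries on log axes, using the median length of protein-coding transcripts in GENCODE 29; the grey line marks equal levels. Members span from CENPC (25.5 in the controls) to BUB3 (2882 in the controls), most lie close to the line, and CENPA is the point farthest above it.

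Members on a published list of G2/M genes, which is independent of these libraries, were looked at apart. The list holds 54 genes, so members not on it may also peak in G2 and mitosis. Of the 36 members, 9 are on that list, and 8 of these rose: CENPA, CENPE, CENPF, NDC80, NUF2, BUB1, TTK and CDC20. HJURP was the one not called. The 9 had a median log2 fold change of 0.24. Of the 27 members not on the list, 8 rose (29.6%) and 6 fell (22.2%), with a median of 0.03. Across all genes tested 19.1% rose and 23.1% fell, so the share of falls was near that of all genes. With library totals alone all 9 listed members rose (median 0.34), and of the 27 others 17 rose and 2 fell (median 0.12). The 45 other genes of the G2/M list had 32 that rose (71.1%) and 5 that fell (11.1%), with a median of 0.21. With library totals alone 39 rose and 1 fell. CENPU is the only member on the matching S-phase list and rose by 0.12, while 33 of the 41 other tested genes on that list fell (median -0.34), and 27 fell with library totals alone. The difference between these sets was not tested, nor was the part that a shift in cell-cycle phases has in the members' values.

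The rest of the pathway was examined from lists of its other genes. Of 20 further kinetochore genes, 8 rose (40%) and 4 fell (20%), beside 19.1% and 23.1% of all genes tested. Their median log2 fold change was 0.07, and 11 rose and 2 fell with library totals alone. NDE1, a dynein regulator, rose by a log2 of 0.39 and SKA1, a microtubule-binding partner of the Ndc80 complex, by 0.38. Chosen after their values were seen, MAD1L1, which encodes the kinetochore anchor of MAD2, fell by 0.36 in log2 terms, and the other 2 RZZ genes, ZW10 and KNTC1, fell by 0.36 and 0.18. Of the 4 genes of the chromosomal passenger complex, which corrects wrong attachments, 3 rose (75%) and 1 fell (25%). Its kinase gene AURKB rose by 0.34 and BIRC5, which encodes survivin, by 0.32. INCENP, its scaffold and the only fall, fell by 0.27 in log2 terms.

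Of 18 genes of the anaphase-promoting complex and its enzymes, 7 rose (38.9%) and 4 fell (22.2%), beside 19.1% and 23.1% of all genes tested. With library totals alone 9 rose and 1 fell. ANAPC15, a subunit needed to release the checkpoint complex, rose by 0.53 and the ubiquitin-conjugating enzyme gene UBE2S by 0.47. Of 15 genes of cohesin, its regulators and separase, 4 rose (26.7%) and 3 fell (20%), with a median of -0.04. These shares were near those of all genes tested. PTTG1, which encodes securin, the inhibitor of separase, rose by 0.56, and SMC1A, a cohesin ring subunit, fell by 0.45.

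**Figure D4:**
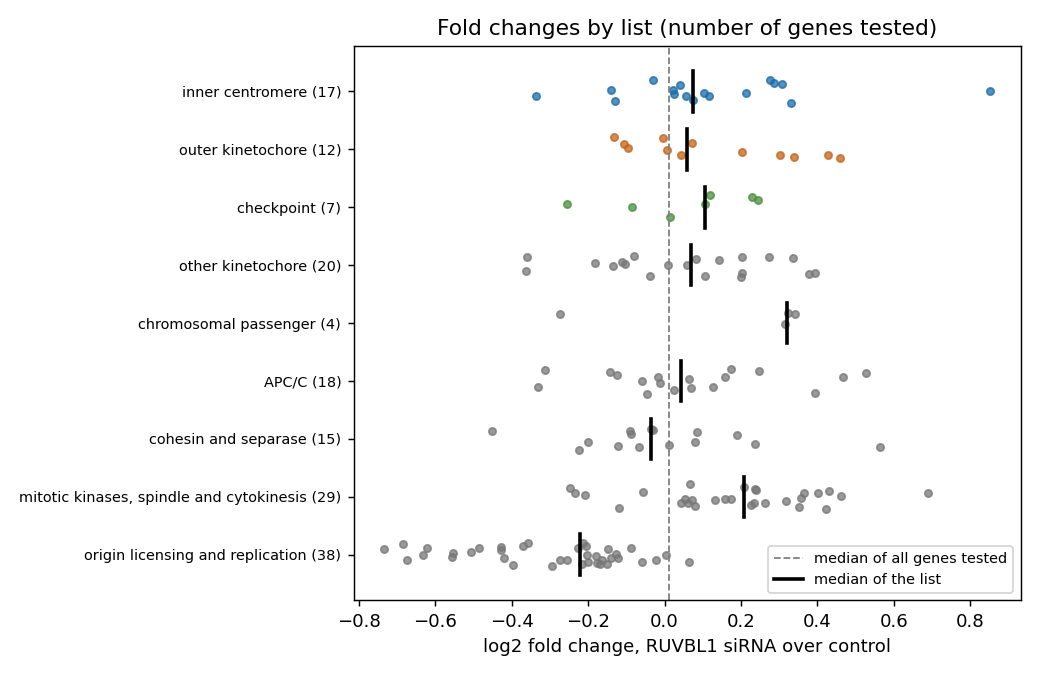
Log2 fold change of each tested gene (points) by list, with the list's median as a black bar and the median of all genes tested as a dashed line; numbers in brackets are genes tested. The 3 member groups centre between 0.06 and 0.11 and spread to both sides, while mitotic kinases and spindle genes centre at 0.21 and replication genes at -0.22.

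Lists of neighbouring cell-cycle genes are set beside the members. Of 29 mitotic kinase, spindle and cytokinesis genes, 21 rose (72.4%) and 3 fell (10.3%), with a median log2 fold change of 0.21. With library totals alone 24 rose. Of 38 genes of origin licensing and replication, 33 fell (86.8%), with a median of -0.22, and 23 fell with library totals alone. Across all genes tested 19.1% rose and 23.1% fell. The difference between these lists and the members was not tested. Fewer cells of a cell-cycle phase and less RNA per cell cannot be told apart in these bulk libraries.

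A RefSeq promoter window of 300 bases was given for 29 of the 36 members. A CHR core TTTGAA occurred on either strand in 12 of the 29 (41.4%), beside 15.5% of 27305 genes with such a window. CCAAT occurred in 18 of the 29 (62.1%), beside 35.7% of all genes, and 8 members (27.6%) held both, beside 6.13% of all genes. An E2F-like octamer occurred in CENPA, CENPU and OIP5 (10.3%), beside 3.34% of all genes. The CHR core was present in 14 of 23 mitotic kinase and spindle windows (60.9%) and in 1 of 34 replication windows (2.94%), whereas the E2F-like octamers were present in 2 and 16 of them.

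Within the members these letters were found on both sides of the response. The 12 members with a CHR core had 5 that rose and 2 that fell, with a median log2 fold change of 0.07, and the 17 without one had 7 that rose and 4 that fell, with a median of 0.04. Of the 18 members with CCAAT, 8 rose and 5 fell (median 0.09), and of the 11 without it 4 rose and 1 fell (median 0.02). Of the 3 with an E2F-like octamer, 2 rose and 1 fell. CENPA, CENPF, NUF2, NDC80 and CDC20 rose and held a CHR core, and MAD2L1 and ZWINT fell and held one. CENPE, which rose by 0.43, held none of the 3 motifs in its window. That window may miss upstream sequence, because the CENPE start lies 66 bases downstream of the first start in GENCODE 29. The MAD2L1 start used here lies 226 bases downstream of the first and nearest start in GENCODE 29, so its window is largely transcribed sequence in that annotation. A match describes letters in a window, not a bound site.

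**Figure D5:**
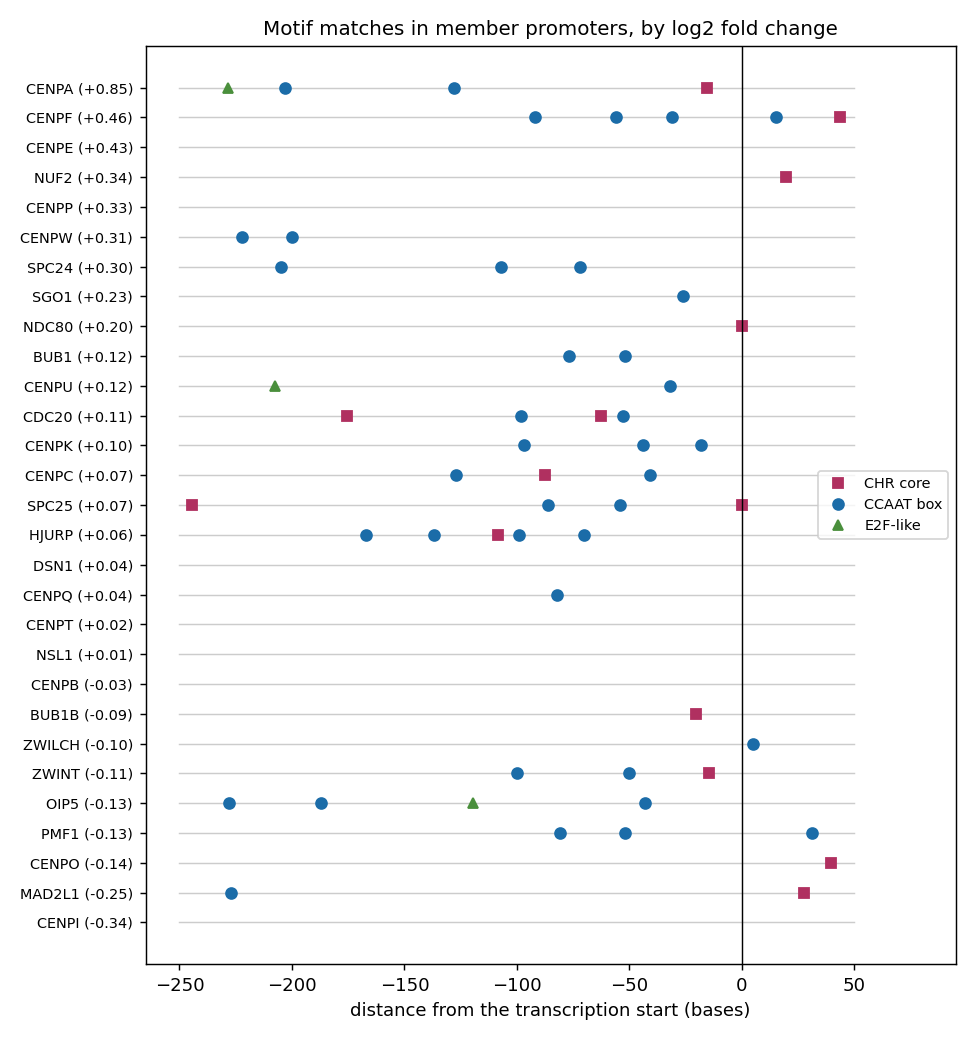
Positions of CHR core, CCAAT box and E2F-like matches (symbols) relative to the RefSeq transcription start (x axis, bases) in the windows of 29 members, sorted from the largest rise to the largest fall, with the log2 fold change in brackets. CHR cores appear in the windows of CENPA (0.85) and MAD2L1 (-0.25) alike.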

How the data were processed

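RNA sequencing of 6 libraries (3 with a control siRNA, 3 with an siRNA against RUVBL1) was grouped and numbered by sample title. Deposited by the authors were estimated counts for each gene, without scaling for depth; between 87.8% and 90.5% are whole, zeros included. The submitters' processing notes name Bowtie 0.12.2 and 2 mouse builds (mm8, mm9), although the gene identifiers are human. For the counter, human build, annotation and strand setting the entry is not given in the sources used here. Reads may therefore be shared among overlapping, antisense or near-identical genes. In GENCODE 29, 10 members share exon sequence with another gene on either strand: BUB1B, CENPO, CENPP, CENPT, CENPU, MAD2L1, OIP5, PMF1, SGO1 and ZWILCH. A pseudogene is named after 9 members. Library totals ran from 18985542 to 36054489, and counting noise limits the precision of members with few counts.

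Rounded counts went into edgeR 4.0.16 (R 4.3.3; genes kept by filterByExpr, TMM, robust quasi-likelihood test, two-sided), with Benjamini-Hochberg adjustment over all 16006 genes kept. The SE is the log2 fold change divided by the square root of F, and 95% intervals use the normal quantile. Normalized counts are scaled to the mean effective library size of 26348516. Symbols were matched by identifier for 51996 of 57820 genes. No 2 files were identical, and every pair of replicates differed by more than counting noise (mean chi-square per gene of 1.71 to 4.12). Deviations from the group means correlated between same-numbered libraries (0.939, 0.819 and 0.823), and by this rule same-numbered libraries count as pairs; the pairing comes from these values, not from the labels, and replicates 2 and 3 correlated about as strongly when crossed (0.817 and 0.807). Without the 542 genes at 0 in replicate 1 the same-numbered values were 0.706, 0.408 and 0.437, and the crossed ones 0.410 and 0.381. Alternatives were DESeq2 1.42.0, limma-voom (limma 3.58.1), other scalings and filters, the replicate block, leaving out libraries, and, added after seeing the data, p bounded by counting noise. The fits were also run on simulated counts of independent libraries. These lacked the differences of the replicate 1 libraries, so that run does not measure the error rates in these data. The members and lists were chosen with earlier results of these data known. All 36 members are accounted for; values by library are given for the 4 called members of largest absolute log2 fold change in each group and those called against the majority of their group (HJURP added after its values were seen), and the 2 called genes of largest absolute log2 fold change are named for each list of further pathway genes (other kinetochore, passenger complex, anaphase-promoting complex, cohesin). A promoter was to be shown for the largest rise in each group and the largest fall; those of CENPA and CENPF are shown, TTK has no window here, and that of CENPI was left out for its start.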

Additional observations from a re-analysis of the deposited data

How the results depend on the processing

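Among 576 alternative values for the 36 members, 511 kept their direction and their side of the threshold, 27 lost a call, 19 gained one and 19 changed sign. The 19 sign changes fell in 9 members, of which only ZWILCH was called in the main analysis, and 1 of the 19 was a call (KNL1, below). Causes were not tested, except that a scaling shifts all genes together.

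With libraries scaled by totals alone, all genes gave 4981 higher and 2297 lower calls, and the members 26 and 2. The inner centromere then had 12 higher and 1 lower. The outer kinetochore had 9 higher and 0 lower (3 lower with TMM). The medians were 0.1729 for the members, 0.1742 for the inner centromere, 0.1572 for the outer kinetochore and 0.2059 for the checkpoint. CENPB changed sign to 0.0701, KNL1 to 0.0962, ZWILCH to 0.0035 and BUB1B to 0.0137. With DESeq2's Wald test, limma-voom and DESeq2 size factors, the inner centromere had 1 lower call, and with DESeq2 size factors KNL1 was at 0.0023.

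Without a filter on low counts the checkpoint had 2 lower calls, the medians were 0.0538 for the members and 0.0872 for the checkpoint, NSL1 was at -0.0133 and BUB3 at -0.0054. With at least 50 counts in 3 libraries the medians were 0.0860 and 0.1193, and KNL1 was at 0.0095. With the replicate block, the members had 16 higher and 8 lower calls and the checkpoint 2 lower; CENPO and BUB1B were the only members whose call changed. In replicates 2 and 3 only, the checkpoint had 2 lower calls, the members' median was 0.0872, CENPC was at -0.0323 and NSL1 at -0.0073.

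Leaving out 1 library, or the genes at 0 in replicate 1, gave 13 to 16 higher and 4 to 7 lower members, 1 to 3 lower in the inner centromere and 1 to 2 lower in the checkpoint. Medians ran from 0.0625 to 0.1026 for the members, 0.0555 to 0.1160 for the inner centromere, 0.0231 to 0.0752 for the outer kinetochore and 0.0763 to 0.1085 for the checkpoint. Log2 fold changes that crossed 0 ran from -0.0709 to 0.0009 for CENPB, -0.0742 to 0.1460 for CENPC, -0.0001 to 0.0407 for CENPM, -0.0247 to 0.0412 for CENPT, -0.0099 to 0.0288 for NSL1, -0.0174 to 0.0023 for KNL1 and -0.0003 to 0.0200 for BUB3. Bounding p by counting noise, added after seeing the data, changed no member's call. CENPC had the fewest counts, 154 to 232 per library.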
